A study of Mus musculus with 60 samples.

Results

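The 7 genes described here encode the enzymes that take stored triglyceride apart and the proteins that switch the first of those enzymes on or off: Pnpla2, Lipe, Mgll, Abhd5, G0s2, Pnpla3 and Pnpla5. They were taken by symbol as a fixed list, 7 of the 54232 gene IDs in the deposited count table, and all 7 were found. Triglyceride in a lipid droplet is cut by adipose triglyceride lipase (the product of Pnpla2) to diglyceride, which hormone-sensitive lipase (Lipe) cuts to monoglyceride, and monoglyceride lipase (Mgll) releases the last fatty acid and glycerol. Abhd5, also called CGI-58, binds the Pnpla2 product and activates it, and G0s2 binds and inhibits it. Pnpla3 (adiponutrin) and Pnpla5 share the patatin domain of Pnpla2 and sit on droplets, and Pnpla3 in liver is known as a target of the transcription factors that drive fat synthesis after feeding.

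Mice ate either a chow holding 11% fat (the control diet) or a Western diet holding 42% fat for 12 weeks, each with or without NaKtide, a transgene-encoded peptide modelled on a stretch of the sodium pump Na,K-ATPase. Polyadenylated RNA of their livers, subcutaneous fat and visceral fat was sequenced. Doxycycline at 300 mg/kg of food induced NaKtide in the transgenic mice, and the labels do not say whether mice without NaKtide carried the transgene or ate doxycycline. The series title places the Na,K-ATPase loop in adipocytes; the sources used here give no promoter for the transgene and no strain, sex or age, and the level of the transgene was not analysed here. The 3 tissues, 2 diets and 2 treatments make 12 groups of 5 libraries, 60 in all, which the series' design ties to 5 mice per group. Whether the same mice gave all 3 tissues is not stated, so p-values measure the spread between these samples. Depth ran from 3177783 to 9784337 counts per library. Levels are counts scaled to library size after TMM normalization (CPM), differences are log2 fold changes ± standard error, and a gene is called where the quasi-likelihood F test of edgeR, adjusted by Benjamini-Hochberg across the genes of the fit, gives p under 0.05.

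Several libraries stood apart and bear on the results. The hepatocyte marker sum was 30800 CPM or more in every liver and 2376 CPM or less in every fat library, and all 8 adipocyte markers were detected in every fat group. The summed adipocyte markers were 835 to 3564 CPM in livers. Visceral control-diet library 5, at 939 CPM, lay within that range, and every other fat library held 8760 CPM or more. In visceral fat, 8 of 20 libraries held over 1000 CPM of 19 testis and male tract genes: control-diet libraries 3, 4 and 5, control-diet NaKtide library 1, Western-diet library 1 and Western-diet NaKtide libraries 2, 3 and 5. In subcutaneous fat, 15 skeletal muscle genes summed to 8003 to 60340 CPM in control-diet libraries and 30.9 to 206 CPM in Western-diet libraries, and control-diet NaKtide library 2 reached 257600 CPM. In liver, control-diet libraries 2 and 4 held over 300 CPM of the same muscle genes. Also in liver, Western-diet library 1 lay nearest the Western-diet NaKtide group for Pnpla2, Pnpla3, Mgll, Abhd5 and G0s2. Western-diet NaKtide library 1 lay nearest the Western-diet group for Pnpla3 and Mgll, but farthest from it for Pnpla2 and Abhd5. Whether the labels of these libraries were exchanged cannot be told from these files. Fewer cells of a type and less RNA per cell cannot be told apart in such bulk samples.

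The promoters of Pnpla3, Pnpla5 and Pnpla2 are shown first, because Pnpla3 and Pnpla5 rose together on the Western diet while Pnpla2 fell. Pnpla3 (chromosome 15, 84167837 to 84187236, plus strand, GRCm38) and Pnpla5 (chromosome 15, 84112356 to 84123175, minus strand) lie head to head, with 44661 bases between them. Pnpla2 lies on chromosome 7, 141455198 to 141460743, plus strand. The 250 bases before each transcription start, from RefSeq on GRCm38.p6, read 5′ to 3′ on the gene's strand, are chr15:84167566-84167815 (plus) for Pnpla3, chr15:84123176-84123425 (minus) for Pnpla5 and chr7:141454938-141455187 (plus) for Pnpla2. Capitals mark matches to any of 6 motifs searched on both strands, a motif on the minus strand standing as its reverse complement: the E-box CACGTG, the CCAAT box, the sterol response element TCACNCCAC, the FoxO element GTAAACA, the GC box GGGCGG and the TATA box TATAAA.
Pnpla3: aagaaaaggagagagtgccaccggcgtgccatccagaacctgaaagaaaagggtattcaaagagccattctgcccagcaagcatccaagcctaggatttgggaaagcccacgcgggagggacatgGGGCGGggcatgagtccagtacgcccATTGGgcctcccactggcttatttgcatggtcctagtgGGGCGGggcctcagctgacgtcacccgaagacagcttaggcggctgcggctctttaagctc
Pnpla5: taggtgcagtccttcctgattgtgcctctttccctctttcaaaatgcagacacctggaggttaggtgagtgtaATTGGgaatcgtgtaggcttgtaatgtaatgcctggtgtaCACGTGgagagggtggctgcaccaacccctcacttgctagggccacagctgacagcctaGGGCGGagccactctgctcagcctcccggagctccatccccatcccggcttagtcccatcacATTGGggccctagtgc
Pnpla2: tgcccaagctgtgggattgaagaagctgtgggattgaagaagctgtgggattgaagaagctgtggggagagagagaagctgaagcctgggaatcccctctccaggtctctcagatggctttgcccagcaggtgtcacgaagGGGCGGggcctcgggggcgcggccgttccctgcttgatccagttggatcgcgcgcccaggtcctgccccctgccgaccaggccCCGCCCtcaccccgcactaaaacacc

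In these windows Pnpla5 held 1 E-box, which begins 137 bases before the start, and Pnpla3 and Pnpla2 held none. Of 32851 mouse promoters of this length, 6.02% hold that E-box. CCAAT boxes were found once in Pnpla3 (99 bases before the start) and at 2 places in Pnpla5 (177 and 16 bases before), against 33.8% of all promoters with at least 1. The GC box, present in 32.7% of all promoters, occurred at 2 places in Pnpla3, 1 in Pnpla5 and 2 in Pnpla2. The sterol response element (1.05% of promoters), the FoxO element (3.17%) and the TATA box (12.4%) had no match in these 3 windows. Among the other members, an E-box stood 155 bases before 1 of 2 Lipe starts and 44 bases before 1 of 2 Mgll starts. The FoxO element stood 119 bases before the other Lipe start and 241 bases before the Mgll start with the E-box. The GC box occurred at 6 places before the Lipe start with the E-box and at 1 before the other Mgll start. Abhd5 and G0s2 held 1 GC box each. A match describes the letters only.

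The remaining members lie on chromosome 1 (G0s2, 193272161 to 193273217, minus strand), chromosome 6 (Mgll, 88724412 to 88828360, plus strand), chromosome 7 (Lipe, 25379527 to 25398710, minus strand) and chromosome 9 (Abhd5, 122351608 to 122381524, plus strand). The body of G0s2 lies wholly within Lamb3 on the opposite strand, and that of Lipe wholly within the antisense gene 4732471J01Rik. The library kit is named as a stranded one, but the sources used here do not say whether counting used it, so reads of these overlapping pairs may not be told apart.

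Levels per transcript length, in FPKM as the authors deposited them, put the median of 6 of the 7 genes higher in both fats than in liver, with Pnpla5 the exception. In subcutaneous fat Pnpla2 stood highest, with a median over 20 libraries of 620 FPKM (301 to 934). G0s2 followed at 497 (98.2 to 753), Lipe at 262 (80.7 to 304) and Mgll at 246 (104 to 334). The ranges of neighbours in this order overlapped, those of Lipe and Mgll almost wholly. Pnpla3 had a median of 72.8 FPKM (18.9 to 143), Abhd5 of 16.5 (6.58 to 25.0) and Pnpla5 of 0.38 (0 to 0.886). The activator Abhd5 was thus far below the lipase it serves in messenger level, while the inhibitor G0s2 overlapped it. Visceral fat kept that order except for Mgll and Lipe, with medians of 332 FPKM for Pnpla2, 318 for G0s2, 211 for Mgll, 189 for Lipe, 43.5 for Pnpla3, 13.6 for Abhd5 and 0.0410 for Pnpla5, and its ranges were wider (76.5 to 923 FPKM for Pnpla2, 9.58 to 897 for G0s2).

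Liver had another order. G0s2 was highest, with a median of 268 FPKM (65.2 to 752), then Mgll at 77.0 (38.7 to 149), Pnpla2 at 40.7 (24.1 to 58.9) and Abhd5 at 8.08 (5.01 to 14.2). The 3 lowest overlapped in range: Pnpla5 at 4.09 FPKM (0 to 21.6), Lipe at 3.69 (2.54 to 5.75) and Pnpla3 at 1.36 (0 to 28.6). Abhd5 overlapped these 3 as well but not Pnpla2. Lipe varied little between livers, while Pnpla3 and Pnpla5 ran from no reads at all to levels above Lipe.

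**Figure D1:**
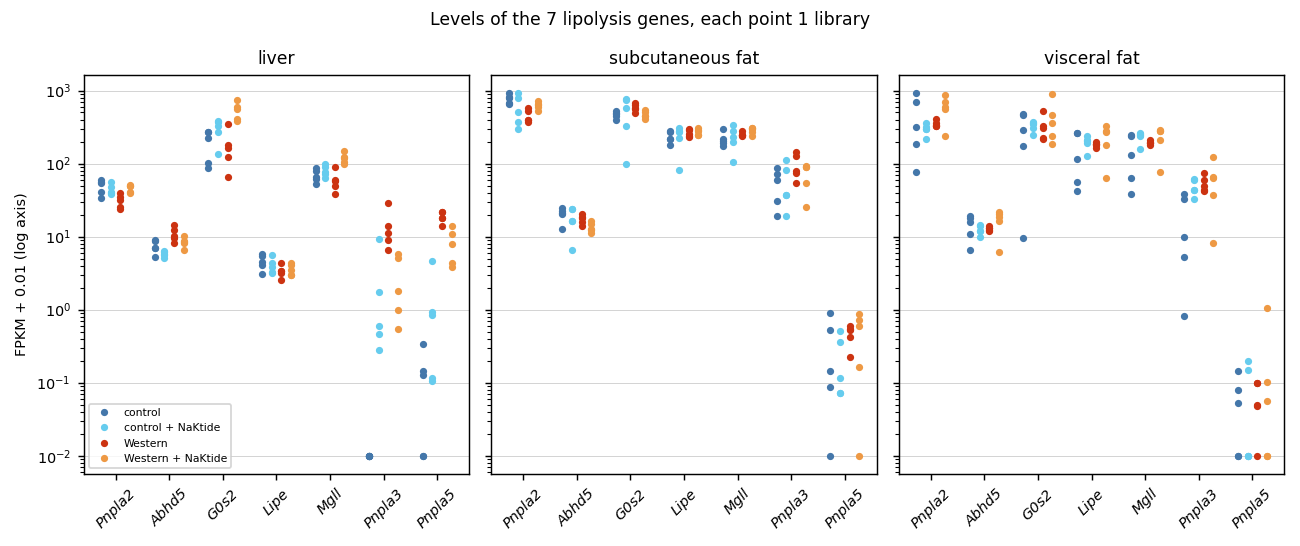
FPKM of the 7 genes plus 0.01 on a log axis in liver, subcutaneous fat and visceral fat, with each point 1 library and colours for the 4 groups of diet and NaKtide. Pnpla2 lies between 301 and 934 FPKM in subcutaneous fat and between 24.1 and 58.9 in liver, and Pnpla3 and Pnpla5 spread over several decades in liver.

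On control diet without NaKtide, 6 of the 7 genes were called lower in liver than in subcutaneous fat, where 56.4% of 18175 genes tested were called and 32.4% lower, and 5 were called lower in liver than in visceral fat, where 65.5% were called and 43.5% lower. Lipe showed a difference of -5.70 ± 0.41 on the log2 scale against subcutaneous fat and -4.99 ± 0.39 against visceral fat. For Pnpla2 the values were -4.02 ± 0.38 and -3.16 ± 0.36, for Mgll -1.67 ± 0.31 and -1.05 ± 0.31, and for Abhd5 -1.49 ± 0.26 and -0.91 ± 0.26. The terminal lipase Mgll and the activator Abhd5 thus differed much less between liver and fat than the 2 upstream lipases did. G0s2 was called lower against subcutaneous fat (-1.32 ± 0.49, adjusted p = 0.0192) and not against visceral fat (-0.57 ± 0.48, adjusted p = 0.301), where it passed without the testis-rich visceral libraries (-1.22, adjusted p = 0.0183). The G0s2 call was lost without control-diet liver library 3 (-1.16, adjusted p = 0.0584) or 4 (-1.14, adjusted p = 0.0617), without the 2 muscle-containing livers (adjusted p = 0.0918) or with muscle-rich genes removed (adjusted p = 0.0530). Pnpla5 was called in neither comparison, at -1.40 ± 1.16 and 1.22 ± 1.40. Pnpla3 had no count in any control-diet liver, and its fitted difference from fat is no measure of size.

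Between the fats on control diet, Pnpla2 alone of the 7 was called lower in visceral fat, at -0.86 ± 0.34 (adjusted p = 0.0440), where 31.5% of genes were called and 8.85% lower. That value came to -0.02 (adjusted p = 0.999) without the testis-rich visceral libraries, which left 2 control-diet libraries. It also failed the threshold without any 1 of subcutaneous libraries 1, 2, 3 or 5 or visceral libraries 3, 4 or 5, with adjusted p from 0.0515 to 0.209 and values from -0.90 to -0.57, and with RLE scaling, without a low-count filter or with voom (adjusted p = 0.0523, 0.0707 and 0.627). Without visceral library 1 or 2 the call was kept and other members were called as well, 6 and 5 in all, and without subcutaneous library 1, 4 or 5 the count was 2. The level difference between the fats therefore depends on which libraries are counted.

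In liver the Western diet raised Pnpla3, Pnpla5 and Abhd5 and lowered Pnpla2, while Lipe, Mgll and G0s2 did not pass the test. That is 4 of 7 members called, 3 higher and 1 lower, where 8.43% of the 12991 genes tested were called (4.73% higher, 3.7% lower). The median log2 fold change over the 7 was -0.07, against 0.03 over all genes tested. So a lipase fell while its activator and the 2 other patatin genes rose. Skeletal muscle genes summed to 12.9 to 746 CPM in control-diet livers and 7.91 to 12.1 CPM in Western-diet livers, and macrophage markers to 66.1 to 125 and 113 to 208 CPM; their part was not tested.

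Pnpla3, the droplet protein that rises with fat synthesis, had 0 counts in all 5 control-diet livers. In Western-diet livers 1 to 5 it read 7.14, 15.2, 31.1, 11.7 and 9.13 CPM. The groups did not overlap, and library 3 was the highest. Taking 3 counts over the control group as the floor (0.131 CPM), its mean of 14.8 ± 9.58 (SD, n = 5) was at least 113-fold higher, a bound that covers counting error only. The adjusted p was 0.00254, and the fitted fold change depends on the prior count because 1 group was at 0.

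Pnpla5, its neighbour on chromosome 15, read 0.475, 0.175, 0, 0 and 0.195 CPM in control-diet livers. In Western-diet livers it read 27.2, 32.5, 32.7, 21.0 and 25.8 CPM. All Western-diet livers were above all controls, and the spread within the Western-diet group was small. The fitted difference was 7.13 ± 0.83 on the log2 scale (adjusted p = 1.9e-05). Its size is uncertain, because the control-diet livers held 4 Pnpla5 counts in total. Over the 20 livers, the log2 CPM of Pnpla3 and Pnpla5 had a Pearson r of 0.913, a description of points that share 4 groups and the same scaling.

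Abhd5, the activator, read 35.1, 34.8, 21.2, 27.7 and 28.0 CPM in control-diet livers and 33.8, 39.7, 59.4, 41.8 and 48.7 CPM in Western-diet livers. Only Western-diet library 1 fell within the control range. The difference was 0.60 ± 0.16 (adjusted p = 0.0214). Its call was lost without control-diet library 3 or 5 or Western-diet library 3, at 0.48, 0.58 and 0.48 (adjusted p = 0.0633, 0.0523 and 0.0783), without a low-count filter (0.57, adjusted p = 0.0615) and without the 2 muscle-containing livers (0.66, adjusted p = 0.0521).

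Pnpla2, which makes the first cut, read 119, 112, 84.1, 67.4 and 113 CPM on control diet and 82.8, 53.5, 51.1, 72.0 and 62.9 CPM on Western diet. The groups overlapped through control-diet library 4 and Western-diet libraries 1 and 4, and all Western-diet livers were below the control median. Pnpla2 fell by 0.62 ± 0.17 on the log2 scale (adjusted p = 0.0236). The call was lost without control-diet library 1, 2 or 5 or Western-diet library 2 or 3, with values from -0.57 to -0.55 and adjusted p from 0.0557 to 0.0705. Within libraries, the ratio of Pnpla2 to Abhd5 CPM was 2.43 to 4.05 in control-diet livers and 0.861 to 2.45 in Western-diet livers, where only library 1 reached the control range. That ratio was chosen after its values were seen and is a description.

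Lipe, Mgll and G0s2 were not called in that comparison. Lipe read 12.3 to 22.6 CPM on control diet and 10.4 to 17.8 CPM on Western diet, a difference of -0.41 (95% interval -0.79 to -0.03) that voom with quality weights called at -0.65 (adjusted p = 0.0212). The difference of Mgll was -0.19 (-0.57 to 0.19), and that of G0s2 -0.07 (-0.82 to 0.69). The G0s2 interval is wide, since its control-diet livers ran from 51.1 to 156 CPM and its Western-diet livers from 38.9 to 210 CPM.

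Adding NaKtide on the Western diet raised Mgll and G0s2 in liver, 2 of 7 members, where 4.82% of genes were called (2.26% higher). This comparison shares its Western-diet libraries with the diet comparison. Macrophage markers summed to 113 to 208 CPM without NaKtide and 250 to 326 CPM with it. The mitochondrial share of counts was 5.64 to 11.6% and 7.06 to 16.9%. Called clock genes moved both ways, with Dbp at 1.02 ± 0.23, Tef at 0.98 ± 0.18, Clock at -1.34 ± 0.25 and Arntl at -2.66 ± 0.61. Igfbp1 (-2.11 ± 0.49) and Insig2 (-1.16 ± 0.17), which respond to fasting and insulin, fell. The part of these shifts, or of sampling time or feeding state, in the member values was not tested. Pnpla2, Pnpla3, Pnpla5 and Abhd5 each had an unadjusted p under 0.05 and did not pass the adjusted threshold. The median over the 7 was 0.05, against -0.02 over all genes.

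Mgll, which frees the last fatty acid, read 320, 203, 138, 173 and 199 CPM in Western-diet livers without NaKtide. With NaKtide it read 339, 428, 394, 494 and 365 CPM. All 5 NaKtide livers were above all 5 others, and Western-diet library 1 came nearest. The difference was 0.97 ± 0.19 (adjusted p = 0.00681) and stayed called without any 1 library, with an adjusted p of at most 0.0272.

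G0s2, the inhibitor of the Pnpla2 product, read 210, 109, 75.5, 38.9 and 94.4 CPM without NaKtide and 346, 443, 230, 320 and 228 CPM with it. The groups did not overlap, but library 1 without NaKtide was close to the lowest NaKtide livers. The difference was 1.57 ± 0.39 (adjusted p = 0.0250). The call was lost without any 1 of Western-diet libraries 2, 3, 4 or 5 or NaKtide libraries 2 or 4, at 1.36 to 1.58 (adjusted p from 0.0571 to 0.0880), and without a low-count filter (1.55, adjusted p = 0.0871).

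The droplet patatins Pnpla3 and Pnpla5 had lower levels with NaKtide without being called. Pnpla3 read 5.90, 5.27, 0.537, 1.78 and 1.06 CPM with NaKtide, all below the lowest Western-diet liver (7.14). Its difference was -2.22 ± 0.76 (adjusted p = 0.101). Pnpla5 read 15.6, 20.5, 5.37, 11.3 and 6.64 CPM, all below the lowest Western-diet liver (21.0), at -1.20 ± 0.48 (adjusted p = 0.134). NaKtide livers 1 and 2 had the highest level of both genes in their group, and the 2 groups did not overlap for either gene.

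Pnpla2 read 102, 82.2, 97.7, 96.6 and 81.8 CPM with NaKtide, with only Western-diet library 1 (82.8) inside that range, at 0.51 ± 0.17 (adjusted p = 0.0757). Abhd5 read 26.2, 32.4, 33.3, 39.8 and 34.5 CPM, at -0.43 ± 0.16 (adjusted p = 0.109). Voom with quality weights called all members but Lipe. Pnpla2 and Abhd5 were called by edgeR without Western-diet library 1, at 0.62 (adjusted p = 0.0227) and -0.52 (adjusted p = 0.0376). Lipe showed 0.05 (95% interval -0.34 to 0.44). Western-diet library 1 and NaKtide library 1 were singled out by their values for these same genes. Leaving out livers that lie near the other group widens the difference, so the resulting calls are no independent support. Without both, 4 members were called: Pnpla2, Pnpla3, Mgll and G0s2.

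**Figure D2:**
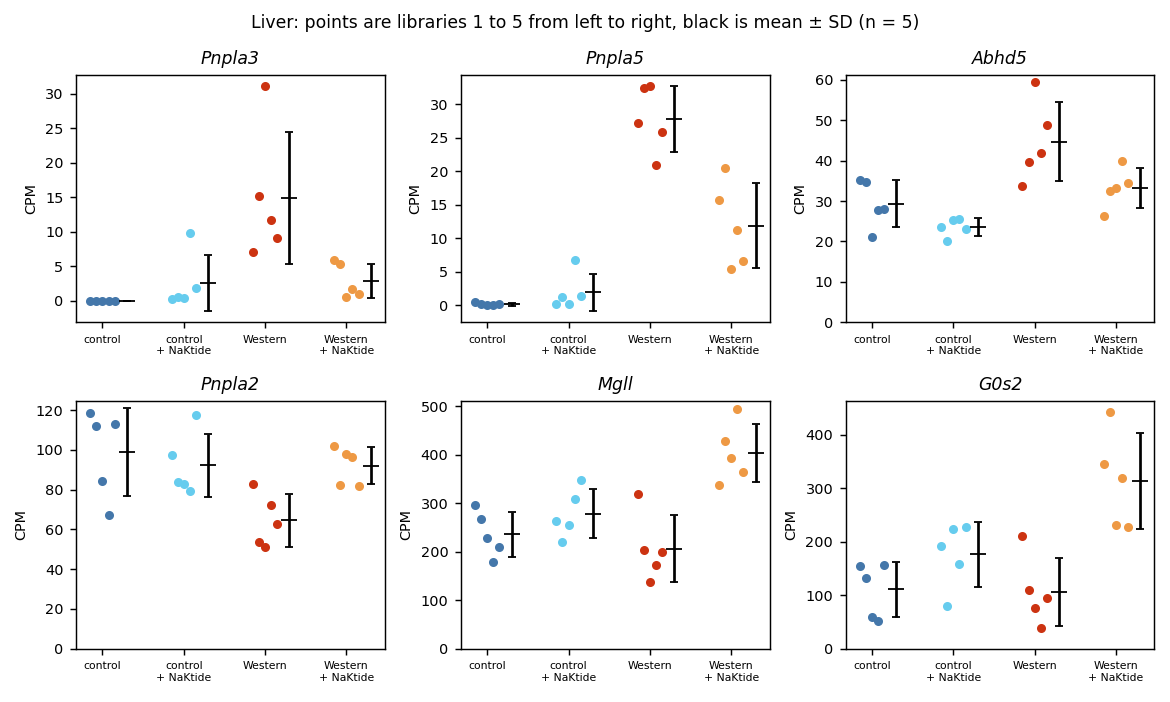
CPM of 6 members in liver (Lipe is not drawn), with libraries 1 to 5 as points from left to right in each of the 4 groups and the mean ± SD (n = 5) in black. Pnpla3 and Pnpla5 lie between 7.14 and 32.7 CPM in Western-diet livers and at 0 to 0.475 CPM in controls, and Mgll and G0s2 are highest in Western-diet livers with NaKtide.

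On control diet, NaKtide gave no called member in liver by edgeR, where 1.37% of genes were called. At an unadjusted p under 0.05 there were 2, DESeq2 called 2 (Pnpla3 and Pnpla5), and limma voom with quality weights called 0. Pnpla3 read 0.281, 0.609, 0.475, 9.80 and 1.86 CPM with NaKtide against 0 counts in every control, at least 19.8-fold higher by the same floor (adjusted p = 0.104) and at least 6.13-fold without library 4. Pnpla5 read 0.141, 1.22, 0.158, 6.81 and 1.39 CPM, at 3.41 ± 1.08 (adjusted p = 0.116). Library 4 held the highest level of both genes. Without it the fitted Pnpla5 difference was 1.85 (adjusted p = 0.492). Pnpla2 was at -0.10 (95% interval -0.43 to 0.22) and Mgll at 0.24 (-0.14 to 0.62). Lipe was at -0.16 (-0.54 to 0.22), Abhd5 at -0.32 (-0.64 to -0.01, adjusted p = 0.282) and G0s2 at 0.67 (-0.08 to 1.43, adjusted p = 0.344). The F test gave Abhd5 an unadjusted p of 0.0581, although its interval leaves out 0.

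How far the effect of NaKtide differed between the diets was tested as its Western-diet value less its control-diet value, which was called for 2 of 7 members in liver, both lower, where 4.66% of genes were called (2.8% lower). Pnpla5 had a difference of effects of -4.61 ± 1.16 (adjusted p = 0.0335), and Pnpla3 passed as well (adjusted p = 0.0267), with a fitted value that rests on the group at 0. Neither was called without control-diet NaKtide library 4 (Pnpla5 -3.05, adjusted p = 0.0999, Pnpla3 adjusted p = 0.0534) or without Western-diet NaKtide library 4 (adjusted p = 0.0643 and 0.0565). Pnpla5 alone was lost without control-diet library 3, 4 or 5, control-diet NaKtide library 5, Western-diet library 2 or 3 or Western-diet NaKtide library 3 or 5, at -4.72 to -4.32 with adjusted p up to 0.0662. Neither was called without the 2 muscle-containing livers (adjusted p = 0.0560 for Pnpla3 and 0.0794 for Pnpla5) or without a low-count filter (0.0756 and 0.0850). Without Western-diet library 1 the count was 4, with Pnpla2 at 0.73 (adjusted p = 0.0414) and Mgll at 0.94 (adjusted p = 0.0181), and without NaKtide library 1 on that diet Mgll passed at 0.78 (adjusted p = 0.0487). With all libraries DESeq2 also called Mgll (0.78, adjusted p = 0.0449), and voom called Pnpla2 (0.77, adjusted p = 0.0102) and Mgll (0.95, adjusted p = 0.00644) but not Pnpla5 (adjusted p = 0.128).

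The rest of the fat pathway moved in liver as follows, with lists chosen with earlier results of these data known. Of 18 fat synthesis genes, 13 rose and 0 fell on the Western diet (median 2.13), among them Elovl5, a fatty acid elongase (2.28 ± 0.25), and Acaca, which makes malonyl-CoA (2.45 ± 0.30). Of 15 droplet proteins, 3 rose and 0 fell, including Cidea at 7.76 ± 1.63 and Cidec at 3.75 ± 1.00, which fuse droplets. None of 15 tested genes of lipolysis signalling, the receptors, kinases and phosphodiesterases upstream of the lipases, was called by edgeR. Of 18 other neutral lipid hydrolases 1 rose and 3 fell, including hepatic lipase Lipc (-0.77 ± 0.17) and the carboxylesterase Ces2a (-1.18 ± 0.28). The median over all genes tested was 0.03, and 8.43% of them were called.

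Of 4 other patatin genes tested in liver, 1 rose and 0 fell on the Western diet, and 1 rose and 1 fell with NaKtide on that diet. Over all genes tested, 8.43% were called for diet and 4.82% for NaKtide on Western diet. Pla2g6, a phospholipase, rose with NaKtide by 0.94 ± 0.23 (57.8 ± 23.5 to 111 ± 26.8 CPM, SD, n = 5). Pnpla7, a lysophospholipase, was called in both comparisons, which share the Western-diet livers. It stood at 185 ± 31.9 CPM on control diet, 291 ± 45.1 on Western diet and 168 ± 26.7 with NaKtide on Western diet (SD, n = 5), a change of 0.66 ± 0.16 and then of -0.79 ± 0.16. With NaKtide on Western diet, 3 of 18 fat synthesis genes fell and 0 rose (median -0.65, against -0.02 over all genes), among them Acly (-1.86 ± 0.47). On control diet with NaKtide, where 1.37% of all genes were called, 11 of 18 rose and 0 fell, including Fasn (2.76 ± 0.41). Their median was 1.53, against 0.01 over all genes.

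Genes whose liver pattern was most like the 2 droplet patatins were found over 20 livers by the Pearson r of log2 CPM, and are given as a description with no test. For Pnpla3 they were Pgd (0.977), Acaca (0.968), Chd1l (0.942), Slc15a5 (0.930) and Slc17a4 (0.916). For Pnpla5 they were Slc17a4 (0.961), Cs (0.947), Tubb2b (0.939), Gpi1 (0.936) and G6pdx (0.934). These points share 4 groups of 5 libraries and the same scaling. Slc17a4 was in both sets.

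Over the 12 group means, which span liver and both fats, the genes most like each fat-rich member were found in the same way. For Lipe they were Kcns3 (0.999), Mst1r (0.999) and Slc7a10 (0.999), and for Pnpla2 Lgals12 (0.991), Negr1 (0.990) and Ebf3 (0.990). For Mgll they were Aplp2 (0.982), Palmd (0.979) and Lrrc39 (0.979), for Abhd5 Carns1 (0.960), Myct1 (0.942) and Slc2a4 (0.938), and for G0s2 Mme (0.896), Rab30 (0.860) and Marveld1 (0.850). For Pnpla3 they were Zfp518b (0.9775), Vps50 (0.967) and Nedd4 (0.965). G0s2 had the weakest matches of these members.

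In subcutaneous fat no member was called by edgeR for diet, where 5.52% of 15226 genes were called, yet the levels of Pnpla2 did not overlap. At an unadjusted p under 0.05 there was 1 member, and DESeq2 and limma voom with quality weights each called 1, in both cases Pnpla2. Pnpla2 read 3353, 2462, 3064, 2305 and 2913 CPM on control diet and 2033, 1447, 1405, 1342 and 1867 CPM on Western diet. The difference was -0.80 ± 0.26 with an adjusted p of 0.0771 by edgeR, 0.0169 by DESeq2 and 0.00614 by voom.

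The control libraries also held more of 15 muscle genes (8003 to 60340 against 30.9 to 206 CPM) and a higher sum of adipocyte markers (17690 to 27170 against 15310 to 17430 CPM, without overlap, as for Pnpla2), and the mitochondrial share of their counts was 4.12 to 11.1% against 2.40 to 3.38%. Whether these shifts have a part in the difference was not tested. Per 1000 CPM of adipocyte markers, Pnpla2 was 107 to 132 on control diet and 77.7 to 122 on Western diet. On that scale the groups overlapped.

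The other lipolysis genes of subcutaneous fat stayed inside intervals that include 0. On Western diet, Lipe was at 0.13 (95% interval -0.36 to 0.63), Mgll at 0.20 (-0.25 to 0.65), Abhd5 at -0.25 (-0.76 to 0.25), G0s2 at 0.32 (-0.34 to 0.97) and Pnpla3 at 0.81 (-0.10 to 1.73). Pnpla3 read 57.8, 132, 114, 156 and 35.5 CPM on control diet and 229, 146, 99.3, 137 and 258 CPM on Western diet, and those groups overlapped. Pnpla5 was near 0 in every subcutaneous library, at 0 to 2.23 CPM.

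With NaKtide no member was called in subcutaneous fat on either diet by edgeR, where 0.0% of genes were called. There were 0 at an unadjusted p under 0.05 in either comparison and 0 by DESeq2 and by voom. The difference of the 2 effects gave 0 by all 3 tools, with 1 at an unadjusted p under 0.05, Pnpla2 at 0.87 (95% interval 0.15 to 1.60). On Western diet Pnpla2 read 1864, 2256, 2137, 2499 and 2326 CPM with NaKtide, at 0.45 (-0.06 to 0.97), and the groups overlapped through Western-diet libraries 1 and 5. On control diet with NaKtide it read 1843, 1073, 1323, 3384 and 2909 CPM, where library 2, the muscle-rich library, was lowest, at -0.42 (-0.93 to 0.09). The other 6 members lay between -0.44 (Pnpla3) and 0.15 (Mgll) on Western diet and between -0.88 (Pnpla5) and 0.10 (Pnpla3) on control diet.

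Ratios inside 1 library do not depend on its scaling. The ratio of Pnpla2 to Lipe CPM, a pair chosen after their values were seen, was 1.21 to 1.92 in control-diet subcutaneous fat and 0.796 to 0.991 in Western-diet subcutaneous fat. With NaKtide on Western diet it was 1.06 to 1.37, above every Western-diet library. The ratio of Pnpla2 to its inhibitor G0s2 was 4.67 to 7.27, 1.90 to 3.78 and 4.13 to 4.99 in the same order. In both ratios the Western-diet libraries lay below these 2 groups, without overlap. With NaKtide on control diet the ratios ran from 0.705 to 1.92 and from 2.25 to 10.6, and both overlapped the Western-diet ranges. These are descriptions with no test.

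In visceral fat the same ratio of Pnpla2 to Lipe was 0.942 to 1.81 on control diet, 0.634 to 0.900 with NaKtide on control diet, 0.887 to 1.10 on Western diet and 1.13 to 1.91 with NaKtide on Western diet. On control diet every library with NaKtide lay below every library without it. On Western diet every library with NaKtide lay above every library without it. The 2 groups with NaKtide did not overlap either. Control-diet library 5, which held the fewest adipocyte markers, had the lowest ratio of its group.

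**Figure D3:**
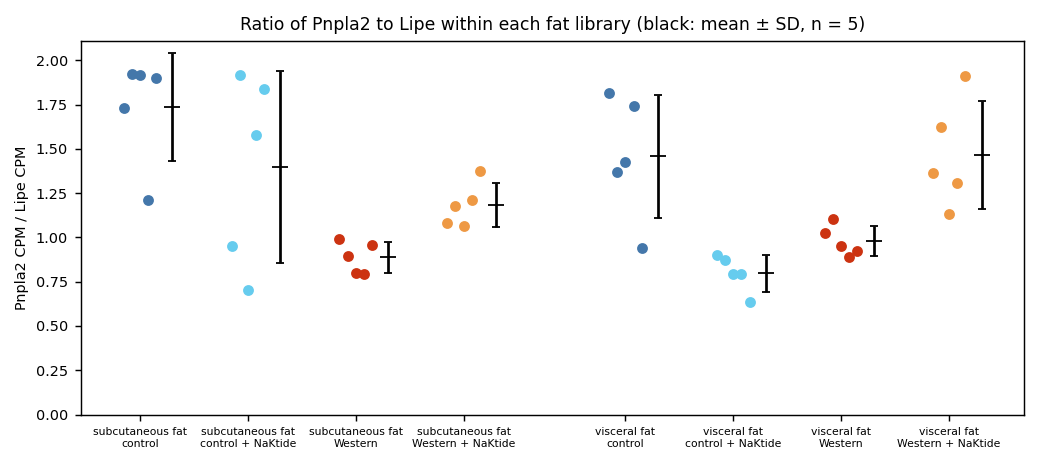
Ratio of Pnpla2 CPM to Lipe CPM in each of the 40 fat libraries, by depot, diet and NaKtide, with libraries 1 to 5 from left to right and the mean ± SD (n = 5) in black. Subcutaneous Western-diet libraries lie at 0.796 to 0.991, below control (1.21 to 1.92) and below Western diet with NaKtide (1.06 to 1.37), and control diet with NaKtide spans 0.705 to 1.92 and overlaps them.

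Across visceral libraries, Pnpla2 was low where the adipocyte markers were low. Pnpla2 read 3558, 2700, 1295, 729 and 271 CPM on control diet, and the summed adipocyte markers of the last of those libraries were 939 CPM against up to 28040 CPM. With NaKtide on control diet Pnpla2 read 828, 1370, 1234, 1148 and 1132 CPM. Control-diet libraries 1 and 2, the only ones of their group under 1000 CPM of testis and tract genes, stood highest. On Western diet Pnpla2 read 1247, 1567, 1312, 1264 and 1397 CPM, and with NaKtide 3395, 2198, 2275, 2835 and 920 CPM.

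Over the 20 visceral libraries the Pearson r of log2 CPM with the log2 sum of adipocyte markers was 0.903 for Pnpla2, 0.842 for Lipe, 0.877 for Mgll, 0.836 for Pnpla3, 0.955 for G0s2 and 0.373 for Abhd5. The points share 4 groups, depth and scaling, and these are descriptions. Abhd5 stayed at 112 CPM in the library with the fewest adipocyte markers.

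**Figure D4:**
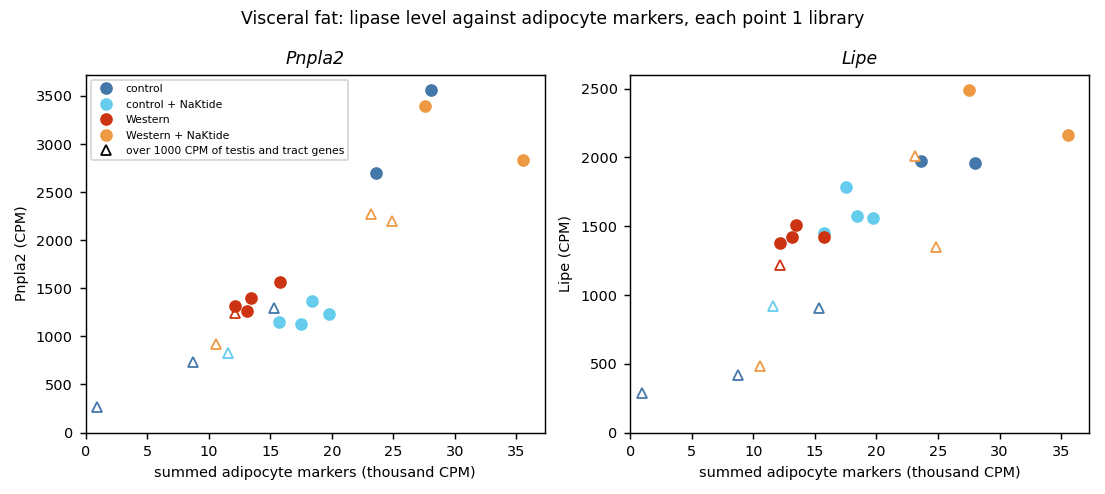
Pnpla2 (left) and Lipe (right) in CPM against the summed adipocyte markers (CPM divided by 1000) for the 20 visceral libraries, with triangles for the 8 libraries over 1000 CPM of testis and tract genes. The levels rise with the adipocyte markers (r = 0.903 and 0.842 on log2 scales).

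No member was called in visceral fat by edgeR in any of the 4 comparisons, where 24.7% of 17235 genes were called for diet, 13.1% for NaKtide on Western diet, 7.14% for NaKtide on control diet and 32.1% for the difference of the 2 NaKtide effects. Pnpla5 did not pass the low-count filter, so 6 members were tested. The counts at an unadjusted p under 0.05 were 1, 0, 0 and 0 in that order. DESeq2 called 1, 0, 0 and 0 and voom with quality weights 1, 2, 1 and 2. The median over all genes was -0.22 for diet, against 0.25 over the 6.

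Without the 8 testis-rich libraries, which left 2, 4, 4 and 2 libraries in the 4 groups, more members passed. For diet, 2 were called, Pnpla2 at -1.18 (adjusted p = 0.00153) and Abhd5 at -0.52 (adjusted p = 0.0274), against -0.33 ± 0.48 and -0.10 ± 0.29 with all libraries. For NaKtide on Western diet, 5 were called: Pnpla2 at 1.17, Lipe at 0.70, Mgll at 0.57, Abhd5 at 0.75 and G0s2 at 1.01 (adjusted p = 0.00123, 0.00892, 0.0170, 0.00390 and 0.0375). For NaKtide on control diet, Pnpla2 was at -1.36 and Abhd5 at -0.51 (adjusted p = 0.00101 and 0.0353). The difference of effects for Pnpla2 was 2.53 (adjusted p = 4.1e-05), and 4 members were called. With all libraries it was 1.36 ± 0.67 (adjusted p = 0.130), and it passed without control-diet library 5 alone (1.59, adjusted p = 0.0291). The diet value of Pnpla2 turned to 0.15 without control-diet library 1.

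Those remaining groups also differed in other cell types. Macrophage markers summed to 254 to 880 CPM on control diet, 1774 to 2767 with NaKtide on control diet, 1402 to 3829 on Western diet and 507 to 1133 with NaKtide on Western diet over all 5 libraries of each group. The part of cell makeup in the member values was not tested. Per 1000 CPM of adipocyte markers, Pnpla2 was 62.5 to 74.5 with NaKtide on control diet and 96.4 to 108 on Western diet. It was 83.3 to 288 on control diet, where library 5 was highest, and 79.7 to 123 with NaKtide on Western diet. The range with NaKtide on control diet lay below those of all other groups, without overlap. Those of control diet and of NaKtide on Western diet overlapped that of Western diet. These are descriptions with no test.

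Pnpla3 in visceral fat read 75.7, 64.9, 20.4, 10.5 and 1.47 CPM on control diet and 115, 87.0, 149, 84.8 and 99.8 CPM on Western diet. The groups did not overlap, and the difference was 1.63 ± 0.71 (adjusted p = 0.0934 by edgeR and 0.0495 by DESeq2). It passed without control-diet library 1 (2.15, adjusted p = 0.0460). Per 1000 CPM of adipocyte markers the values were 1.2 to 2.75 on control diet and 5.52 to 12.2 on Western diet, again without overlap. With NaKtide on control diet Pnpla3 read 64.0 to 120 CPM, at 1.45 ± 0.71 (adjusted p = 0.195).

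**Figure D5:**
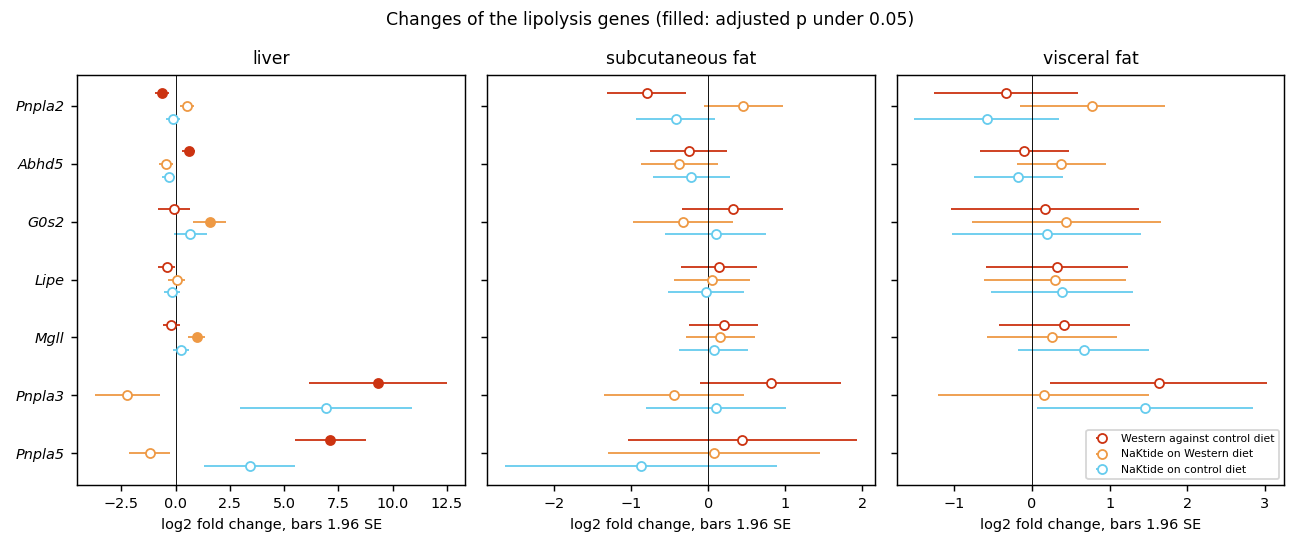
Log2 fold changes of the 7 genes with bars of the 95% interval for diet and for NaKtide on each diet in each tissue, from edgeR. Filled points passed an adjusted p of 0.05, which happened in liver alone among these 9 comparisons: Pnpla2, Abhd5, Pnpla3 and Pnpla5 for diet, and Mgll and G0s2 for NaKtide on Western diet.

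The diet effect itself differed between liver and the fats for the 2 droplet patatins. In a single model of all 60 libraries, 2 of 7 members had a larger diet effect in liver than in subcutaneous fat, where 0.688% of genes were called and 0.583% higher, and 2 had a larger one than in visceral fat, where 10.4% were called and 7.24% higher. Pnpla5 differed by 6.76 ± 1.38 (adjusted p = 0.00656) from subcutaneous fat and by 7.17 ± 2.01 (adjusted p = 0.0175) from visceral fat. Pnpla3 passed in both (adjusted p = 0.0124 and 0.00874), with fitted values that rest on the livers at 0. No other member passed in either.

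Leaving out the 2 muscle-containing livers raised the adjusted p of both genes against subcutaneous fat above 0.05 (adjusted p = 0.0717 for Pnpla3 and 0.0502 for Pnpla5). Against visceral fat, Pnpla5 was lost without the testis-rich libraries (8.07, adjusted p = 0.0913) or without visceral control-diet library 1 (6.55, adjusted p = 0.0797). Between the fats 0 members differed in diet effect by edgeR, DESeq2 or voom, with 0 at an unadjusted p under 0.05; edgeR called 5.28% of all genes there.

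In subcutaneous fat on Western diet 5.52% of all genes were called, the share to set beside each list count here. Of 17 fat synthesis genes 4 rose and 0 fell (median 0.85, against -0.02 over all genes). Among them were Scd2, a desaturase (2.70 ± 0.44), and Acss2, which makes acetyl-CoA from acetate (2.65 ± 0.46). Of 14 droplet proteins 1 rose, the coat gene Plin2 (1.24 ± 0.25), and 1 fell, Fitm1 (-7.81 ± 1.78, 71.8 ± 54.2 to 0.307 ± 0.476 CPM, SD, n = 5), a droplet protein of muscle; muscle genes summed lower in the same libraries, as given above, and their part was not tested. None of 11 other neutral lipid hydrolases was called. In lipolysis signalling 1 of 24 tested genes fell and 0 rose, the lactate receptor Hcar1 (-1.46 ± 0.36, 103 ± 34.7 to 37.3 ± 22.8 CPM, SD, n = 5), whose product restrains lipolysis.

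In visceral fat on Western diet, where 24.7% of all genes were called, 5 of 18 fat synthesis genes rose and 1 fell. Of 25 lipolysis signalling genes 1 rose and 0 fell, the adenosine receptor Adora1, also a brake on lipolysis (1.22 ± 0.36). Of 17 other neutral lipid hydrolases 1 rose and 4 fell (median -1.12, against -0.22 over all genes): Lipa, the lysosomal acid lipase, rose by 2.28 ± 0.47, and the carboxylesterase Ces1e (-4.94 ± 1.12) and endothelial lipase Lipg (-5.13 ± 1.52) were among those that fell. Of 15 droplet proteins 2 rose, Hilpda (1.07 ± 0.21) and Plin2 (1.80 ± 0.51), and 1 fell, Fitm1 (-2.21 ± 0.52). With NaKtide on Western diet, where 13.1% of all genes were called, 4 of the 17 hydrolases rose and 1 fell, with Ces1d at 2.23 ± 0.59 and Lipa at -1.74 ± 0.46. The testis-rich libraries and the macrophage markers above moved between the same groups, and their part was not tested.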

How the data were processed

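Liver, subcutaneous and visceral fat of mice were profiled by paired-end mRNA sequencing, 60 libraries in 12 groups of 5. The authors deposited raw gene counts, a normalized table (a signal equal to the counts divided by 1 factor per library) and FPKM values, per the file headers and values. Trimmomatic 0.38, HISAT2 2.1.0, DESeq2 1.20.0 and GRCm38 appear in the submitters' processing notes; the counting program is not given in the sources used here. Depth was 3177783 to 7161277 counts in liver, 3485216 to 9784337 in subcutaneous and 4187968 to 9493819 in visceral fat, and intervals on counts cover counting error only.

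Counts were tested with edgeR 4.0.16 in R 4.3.3: TMM scaling, filterByExpr, and the quasi-likelihood F test with Benjamini-Hochberg adjustment over all genes, in 1 model of 4 groups per tissue and 1 model of all 60 libraries between tissues. The 95% intervals are 1.96 standard errors, which is somewhat narrower than the F test allows at this number of libraries. A script was tested on simulated data, where of 100 genes changed 2-fold 80 were recovered for liver diet, 42 for subcutaneous fat diet and 4 for visceral fat diet. Of 100 genes changed 4-fold, 100, 99 and 34 were recovered in the same order. The simulated spread followed the trend fitted to all libraries of a tissue, testis-rich ones included, so it describes these settings and not the recovery of each real gene. Other settings tried were fits that kept all genes with any count, RLE scaling, DESeq2 1.42.0, voom with quality weights in limma 3.58.1, the replicate number as a block, each library left out, and libraries or genes rich in muscle or testis transcripts left out.

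The members, gene lists and tests were chosen with earlier results of these data known. Any member could be named in any comparison; from each pathway list, up to 2 rising and 2 falling called genes with the smallest p could be named, and a selection is printed. Genes of like pattern are those with the highest Pearson r among genes with a mean of at least 5 CPM. Protein sequences and the transgene were not analysed here.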

Additional observations from a re-analysis of the deposited data

Results flagged for a closer look

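Among 83 groups of 5 libraries tested for a single distant library, 5 had one, where chance gives about 1 in 20. The share flagged was thus near the chance rate. That rate assumes normally distributed values, and the flagged Pnpla3 and Pnpla5 groups held few counts. In liver on control diet with NaKtide, library 4 held both: Pnpla3 was at 9.80 CPM against 0.281 to 1.86 in the others, and Pnpla5 at 6.81 CPM against 0.141 to 1.39. Library 4 of visceral fat on Western diet with NaKtide had Pnpla5 at 3.02 CPM, with the others at 0 to 0.252. Mgll was 1663 CPM in subcutaneous Western-diet library 1, against 1450 to 1481 in the others. Mgll was lowest, at 994 CPM, in visceral library 1 on control diet with NaKtide, a library over 1000 CPM of testis and tract genes, against 1572 to 1695 in the others.

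By edgeR with all libraries, effects differed between groups, by a test of the difference itself, for Pnpla3 and Pnpla5. Other tools and sets of libraries called further members, Pnpla2 and Mgll among them, as given with those comparisons. In liver, the NaKtide effect on Western diet less the one on control diet was -9.14 for Pnpla3 and -4.61 for Pnpla5 on the log2 scale (edgeR, adjusted p = 0.0267 and 0.0335). The diet effect in liver exceeded that in subcutaneous fat by 9.45 and 6.76 (adjusted p = 0.0124 and 0.00656). It exceeded that in visceral fat by 8.62 and 7.17 (adjusted p = 0.00874 and 0.0175). The Pnpla3 sizes rest on control-diet livers with 0 counts, where the fitted value depends on the prior count. Those of Pnpla5 rest on 4 counts in total over the same livers and are uncertain as well.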

How the results depend on the processing

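Over 65 results, alternatives other than leaving out 1 library left 390 values with the same direction and call, made 36 pass and 20 miss the threshold, and reversed 3. Leaving out each library kept 680, with 21 passing, 36 missing and 13 reversed; visceral fat had the widest spread between libraries and the lowest recovery in the check of the test, and liver levels of Pnpla3 and Pnpla5 near 0 limit their fold sizes. Counts of members called moved as follows. In liver, NaKtide on Western diet gave 1 without a low-count filter, 4 without both library 1s and 6 with voom, NaKtide on control diet gave 2 with DESeq2, and the difference of those effects gave 0 without a filter, 0 with the replicate block, 0 without muscle-containing livers and 4 without both library 1s. Both library 1s were singled out by their member values, so the counts without them are no independent support. Subcutaneous fat diet gave 1 with DESeq2 and 1 with voom. Without testis-rich libraries visceral fat gave 2 for diet, 5 for NaKtide on Western diet, 2 for NaKtide on control diet and 4 for their difference; voom gave 1, 2, 1 and 2, and DESeq2 gave 1 for diet. Visceral against subcutaneous fat gave 0 with RLE scaling, no filter, voom or no testis-rich libraries, and 2 with muscle-rich genes removed or without muscle-containing livers. The liver diet effect against subcutaneous fat gave 0 without muscle-containing livers, and that against visceral fat 1 without testis-rich libraries.

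Leaving out each library in turn gave 2 to 4 members for liver diet, 1 to 4 for NaKtide on Western diet, 0 to 4 for the liver difference of effects, 0 to 1 for visceral diet and for the visceral difference of effects, 0 to 6 between the fats, and 1 to 2 for the diet effect of liver against visceral fat. Uncalled values that changed sign were G0s2 in liver diet (-0.48 to 0.14), Lipe in liver with NaKtide on Western diet (-0.0343 to 0.17), and in visceral fat Pnpla2 (-0.59 to 0.15) and Abhd5 (-0.28 to 0.0824) for diet, G0s2 with NaKtide on Western diet (-0.0453 to 0.69) and Abhd5 with NaKtide on control diet (-0.35 to 0.0225). Between the fats, Lipe and Mgll turned to 0.0784 and 0.0834 without testis-rich libraries, and Pnpla5 of liver against subcutaneous fat to 0.27 with voom. The causes were not tested.

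Within a tissue, replicate numbers did not pair the libraries of different groups. Same-numbered libraries had a median correlation of -0.0964 in liver, 0.0171 in subcutaneous and -0.199 in visceral fat. In that order, 2, 3 and 3 of 20 correlated best with their own number. Correlation between tissues was not examined, and the model of all libraries treats the tissues as separate samples. With the replicate block, the calls were 3 for liver diet (Abhd5 at 0.58, adjusted p = 0.0583), 2 for NaKtide on Western diet and 0 for the liver difference of effects (Pnpla3 adjusted p = 0.0759, Pnpla5 -4.62, adjusted p = 0.0647).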

Other observations

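In liver, the ratio of the inhibitor G0s2 to Pnpla2 CPM was 0.703 to 1.38 on control diet, 0.540 to 2.54 on Western diet and 2.36 to 5.38 with NaKtide on Western diet. With NaKtide on control diet it was 0.954 to 2.70. Western-diet library 1 and library 3 of NaKtide on control diet reached the range of NaKtide on Western diet. In subcutaneous fat, Lipe per 1000 CPM of adipocyte markers was 56.5 to 108 on control diet and 97.7 to 128 on Western diet, and G0s2 was 18.2 to 27.9 and 32.3 to 41.1, without overlap for G0s2. With NaKtide on Western diet G0s2 was 25.0 to 27.6 on that scale, below every Western-diet library. These ratios were chosen after their values were seen and were not tested.

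Over the 20 subcutaneous libraries, the Pearson r of log2 CPM with the log2 sum of adipocyte markers was 0.753 for Pnpla2, 0.701 for Abhd5, 0.416 for G0s2, 0.311 for Lipe, 0.0416 for Mgll, -0.336 for Pnpla3 and -0.665 for Pnpla5. These points share 4 groups and the same scaling, and Pnpla5 is near 0 counts there.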
